A study of Mus musculus with 4 samples.

Results

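The livers of wildtype mice were compared 24 h after an acetaminophen overdose with those of wildtype mice at 0 h. The comparison is the wildtype 24 h array minus the wildtype 0 h array, 2 of the 4 arrays of the series, as log2 differences in which 1 unit is 2-fold. It covered 18085 of the 30142 genes that the array annotation names by 1 symbol per probe set. A gene was represented by its brightest probe set and kept when its mean over the 4 arrays reached the 40th percentile of named genes, a level of 4.326. The wildtype mice were males that carried a floxed YAP gene and had been fasted. Those of the 24 h group received 300 mg/kg acetaminophen by intraperitoneal injection, and those of the 0 h group were sampled fasted, without the drug. The YAP-KO mice, used here for values set beside the wildtype ones, were also male and fasted and were sampled at the same 2 times after the same dose. Nothing in the sources used here gives the Cre driver, the deleted exons or the cells that lost YAP. Each array held liver RNA pooled from 3 mice, so the spread between mice is not visible and there is no replicate error on any difference. Every difference below is therefore described by its size, with no test. No untreated 24 h array was among those used, and the overdose cannot be told apart from time, handling or food intake over the 24 h. In whole liver, fewer cells of a type cannot be told apart from less RNA per cell.

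Acetaminophen is cleared in hepatocytes by glucuronidation and sulfation, and a part is oxidised by cytochromes P450 to a reactive quinone imine that is detoxified by glutathione. When glutathione runs out, the metabolite binds proteins, mitochondria fail and hepatocytes around the central veins die. Surviving hepatocytes then re-enter the cell cycle while neutrophils and macrophages clear the debris and the actin cytoskeleton and matrix of the tissue are rebuilt.

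At 24 h, 2322 genes were at least 2-fold higher than at 0 h, which is 12.8% of the genes measured, and 1061 were at least 2-fold lower, which is 5.87%. The counts of lists and families below are to be read against these shares. The median difference over all genes was 0.07, with quartiles of -0.27 and 0.54, and 11675 genes (64.6%) lay within 1.5-fold. At larger folds, 164 genes were 8-fold higher and 115 were 8-fold lower, while 12 were 64-fold higher and 8 were 64-fold lower. Of the genes past 2-fold, 68.6% were higher. After quantile normalization of the arrays that share was 58.2%, so the balance between the directions depends on the scaling. In YAP-KO mice, 867 genes (4.79%) were 2-fold higher and 406 (2.24%) were 2-fold lower over the same 24 h. Because the wildtype baseline is a single array, the 24 h values were also set against the YAP-KO 0 h array. That array is of another genotype, and both differences use the same 24 h reading, so they are not independent. Where the 2-fold call of a named gene depends on the baseline, its value on this YAP-KO baseline, or its reading on that array, is given. For microRNA genes and for genes of neighbour runs this is done for some only. Counts and medians on the YAP-KO baseline are given for some lists only, and others moved too.

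Differences of 2-fold or more were more frequent among bright genes. Placing genes by their level on the YAP-KO 0 h array, which is on neither side of the comparison, 22.6% of the brightest of 5 equal parts were 2-fold higher and 16.4% were 2-fold lower. In the dimmest part the shares were 3.51% and 0.995%. The 1526 olfactory and vomeronasal receptor genes, which liver is not known to express, had a median level of 3.89 at 0 h and 3.66 at 24 h, so levels near 4 are close to the readings of silent genes. Values at the top of each array (19.86 at 0 h, 19.93 at 24 h) were taken as saturated. On both wildtype arrays 62 genes were saturated, albumin (Alb) and transthyretin (Ttr) among them, and no difference is given for these. The level filter let few genes in through one array alone: without their 24 h reading, 28 of the 2322 higher genes would not have reached it.

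**Figure D1:**
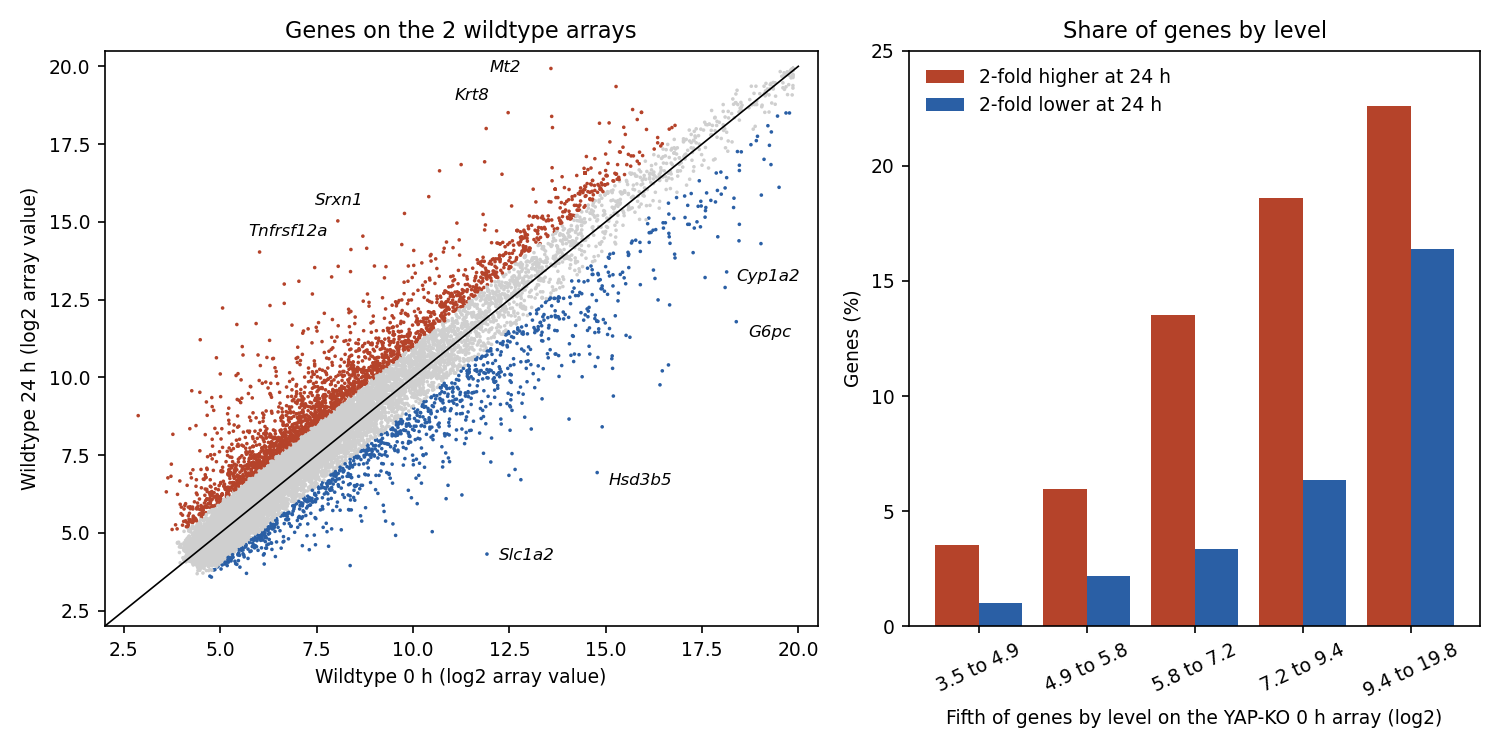
Left, log2 level of each gene on the wildtype 0 h array (horizontal axis) and the wildtype 24 h array (vertical axis), 1 pooled array each, with genes at least 2-fold higher in red, at least 2-fold lower in blue and the line of equal levels in black. Right, the percent of genes past 2-fold in each direction in 5 equal parts of the genes ordered by their YAP-KO 0 h level, which grows from 3.51% higher and 0.995% lower in the dimmest part to 22.6% and 16.4% in the brightest.

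The 25 genes with the largest excess at 24 h came from many classes. Tnfrsf12a, the receptor of the cytokine TWEAK, read 6.02 at 0 h and 14.03 at 24 h (difference 8.01). Thbs1, the matrix protein thrombospondin 1, read 5.06 at 0 h and 12.23 at 24 h (difference 7.17). Adm, the vasodilator peptide adrenomedullin, read 4.48 at 0 h and 11.21 at 24 h (difference 6.73). Klf6, a zinc finger factor of early injury responses, read 7.45 at 0 h and 13.53 at 24 h (difference 6.08). All 4 read below 8 at 0 h and above 11 at 24 h. Nid1, a basement membrane linker, differed by 5.72, Mrap, a melanocortin receptor accessory protein, by 5.35 and Rab30, a Golgi GTPase, by 5.34. In YAP-KO the same 3 genes differed by 1.37, 0.16 and -0.53. Of the 25 genes, 13 were also 2-fold higher in YAP-KO, 4 had the opposite sign there, and all 25 had a smaller difference there; since they were chosen for their wildtype difference, a smaller value elsewhere is part of how they were picked. Against the YAP-KO 0 h array as baseline, 24 of the 25 were 2-fold higher at 24 h. The exception was Mt2, which was saturated on that array. This second difference uses the same 24 h reading by which the genes were picked, so the count is no independent check.

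The 25 genes with the largest deficit included enzymes, transporters and receptors. Hsd3b5, a steroid dehydrogenase of male mouse liver, read 14.78 at 0 h and 6.94 at 24 h (difference -7.84). Nudt7, a peroxisomal coenzyme A hydrolase, read 16.41 at 0 h and 9.76 at 24 h (difference -6.65). Keg1, a glycine acyltransferase-like gene, read 12.8 at 0 h and 6.71 at 24 h (difference -6.09). Inmt, an amine N-methyltransferase, read 12.65 at 0 h and 7.04 at 24 h (difference -5.61). These 4 genes read above 12 at 0 h and below 10 at 24 h. Mme, the cell surface peptidase neprilysin, differed by -4.76, Sucnr1, the succinate receptor of stellate cells and other cells, by -4.63 and Fam214a by -4.74. Of these 25 genes, 24 were also 2-fold lower in YAP-KO, where Mme differed by -4.19 and Sucnr1 by -2.33.

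**Figure D2:**
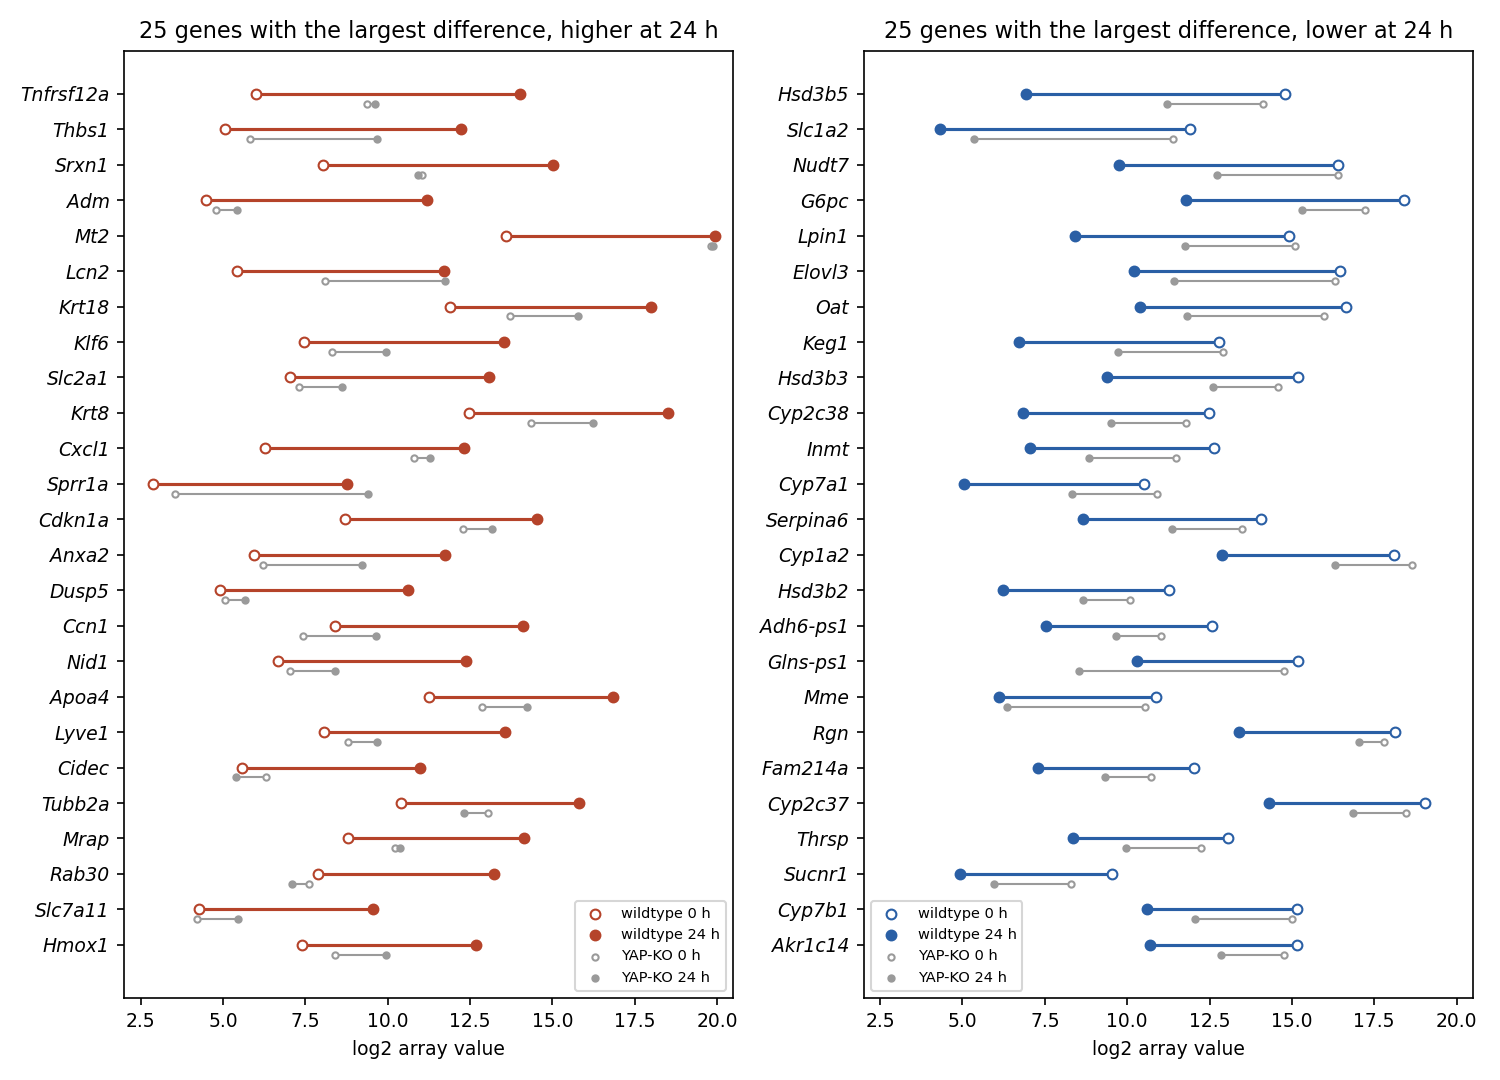
Log2 levels of the 25 genes with the largest excess (left) and the 25 with the largest deficit (right) at 24 h, with open circles for 0 h, filled circles for 24 h, wildtype in colour and YAP-KO in grey below it, 1 pooled array per circle. The wildtype differences, the lengths of the coloured lines, run from 5.29 to 8.01 for the higher genes and from -7.84 to -4.48 for the lower ones; the grey line is longer than the coloured one for Glns-ps1.

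Enzymes that process drugs were mostly lower. Of 26 measured genes of phase I metabolism, 16 were 2-fold lower and 0 were higher, with a median difference of -1.86 against 0.07 over all genes. Cyp1a2, a pericentral P450 that oxidises acetaminophen, read 18.1 at 0 h and 12.89 at 24 h (difference -5.21). Cyp2e1, the principal P450 for that reaction, was saturated at 0 h and read 19.38 at 24 h, so it was at least 0.48 lower. Cyp3a11 differed by -0.34. The P450s with a part in acetaminophen activation thus differed widely among themselves. Aox3, an aldehyde oxidase, read 16.66 at 0 h and 12.33 at 24 h (difference -4.33), and Fmo5, a flavin monooxygenase, 14.16 at 0 h and 11.32 at 24 h (difference -2.84). Over the whole P450 family, 36 of 73 genes were lower and 5 were higher. The 5 higher ones were Cyp4a14, Cyp4a31, Cyp4a32, Cyp20a1 and Cyp17a1, with differences of 4.08, 2.02, 1.46, 1.57 and 1.52. The first 3 belong to the fatty acid hydroxylases of subfamily 4A, and Cyp4a32 was 0.95 after quantile normalization.

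Conjugating enzymes differed by family. All 10 measured UDP-glucuronosyltransferases were 2-fold lower, with a median of -2.24 in wildtype and -1.56 in YAP-KO. Ugt2b1 read 17.91 at 0 h and 14.52 at 24 h (difference -3.39). Papss2, which makes the sulfate donor of sulfotransferases, read 13.71 at 0 h and 10.75 at 24 h (difference -2.96). Among glutathione S-transferases, 10 of 21 were lower, led by Gstm3 at 14.19 at 0 h and 10.75 at 24 h (difference -3.44), and 2 were higher, Gsta2 at 10.25 at 0 h and 12.96 at 24 h (difference 2.71) and Gstp3 at 1.03, which was -0.10 against the YAP-KO 0 h array. Ugdh, which makes the sugar donor for glucuronidation, went the other way from the enzymes that use it, at 11.26 at 0 h and 12.43 at 24 h (difference 1.17); its YAP-KO difference was -1.25, and on the YAP-KO baseline it was 0.0. Of 11 sulfotransferases, 4 were lower and 1 was higher, with a median of -0.54. The lowest was Sult2a8 at 18.46 at 0 h and 14.39 at 24 h (difference -4.07), and the higher one was the estrogen sulfotransferase Sult1e1, at 4.47 at 0 h and 9.52 at 24 h (difference 5.05). Carboxylesterases, which hydrolyse ester drugs and lipids, were lower for 11 of 15 genes, aldehyde dehydrogenases for 9 of 17 and aldo-keto reductases for 8 of 13. The 2 aldo-keto reductases that were higher were Akr1b8 at 3.4 and Akr1c18 at 2.55. On the YAP-KO baseline 8 of the 15 carboxylesterases were lower.

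Amino acid catabolism was the most one-sided list of hepatocyte metabolism. Of 36 genes, 29 were 2-fold lower and 0 were higher, with a median of -1.67. In YAP-KO 5 of the 36 were lower and the median was -0.58. Kynu, which cleaves kynurenine in tryptophan breakdown, read 14.39 at 0 h and 10.02 at 24 h (difference -4.37). Hal, which opens histidine breakdown, read 14.8 at 0 h and 10.64 at 24 h (difference -4.16). Prodh, the first enzyme of proline oxidation, read 10.85 at 0 h and 7.57 at 24 h (difference -3.28). Hgd, which opens the ring of homogentisate in tyrosine breakdown, read 17.27 at 0 h and 14.01 at 24 h (difference -3.26). Cth, the transsulfuration enzyme that makes cysteine from cystathionine, read 16.28 at 0 h and 13.18 at 24 h (difference -3.1). These 5 steps belong to 5 different amino acid pathways, and each was more than 8-fold lower. The 7 members that did not reach 2-fold all had negative differences; Tat, saturated at 0 h, was at least 0.56 lower and Mat1a, which makes S-adenosylmethionine, differed by -0.35.

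Genes of the urea cycle and nitrogen handling differed less evenly. Of 18 measured, 8 were lower and 1 was higher, with a median of -0.84; on the YAP-KO baseline 4 were lower, and Asl was -0.36. The glutamate transporter Slc1a2, which pericentral hepatocytes use, read 11.92 at 0 h and 4.32 at 24 h (difference -7.6), the second largest deficit of all genes, and ornithine aminotransferase (Oat) read 16.63 at 0 h and 10.4 at 24 h (difference -6.23). The cycle's own enzymes differed less: Otc by -2.01, Asl by -1.02, Cps1 by -0.76 and Arg1 by -0.06. Gpt2, the mitochondrial alanine transaminase, was the 1 higher member at 12.79 at 0 h and 14.68 at 24 h (difference 1.89), while the cytosolic form Gpt differed by -0.84, or by -1.1 after quantile normalization.

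Glucose output and glycogen genes were mostly lower. Of 21 measured, 13 were 2-fold lower and 0 higher, with a median of -1.4. G6pc, the phosphatase that releases glucose, read 18.39 at 0 h and 11.79 at 24 h (difference -6.6). The glucose transporter Slc2a2 read 15.05 at 0 h and 11.38 at 24 h (difference -3.67), the liver glycogen phosphorylase Pygl 14.17 at 0 h and 10.51 at 24 h (difference -3.66), and Ppp1r3b, which targets phosphatase to glycogen, 12.04 at 0 h and 8.05 at 24 h (difference -3.99). Pck1, the cytosolic gluconeogenic carboxykinase, differed by -2.43, whereas its mitochondrial counterpart Pck2 differed by 0.09 and pyruvate carboxylase (Pcx) by 0.28. Pck1, G6pc and Pygl were thus lower, while Pck2 and Pcx were within 1.5-fold.

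Glycolysis and hypoxia genes had a positive median. Of 27 measured, 11 were higher and 1 was lower, with a median of 0.80 and 0.21 in YAP-KO. Slc2a1, the glucose transporter that adult hepatocytes hardly use, read 7.04 at 0 h and 13.09 at 24 h (difference 6.05), against the deficit of Slc2a2 given above. Pkm, the muscle-type pyruvate kinase, read 5.98 at 0 h and 10.72 at 24 h (difference 4.74). The liver-type kinase Pklr, also of glycolysis but not among the 27, read 12.2 at 0 h and 9.74 at 24 h (difference -2.46). The counts above leave it out. Hilpda, a lipid droplet protein induced by hypoxia, read 5.0 at 0 h and 10.11 at 24 h (difference 5.11), and the aldolase Aldoa 8.36 at 0 h and 10.89 at 24 h (difference 2.53). Pdk1 was the member that went the other way, at -1.14 (-0.74 on the YAP-KO baseline), and the much used control Gapdh differed by 0.15.

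Lipid genes differed in both directions. Of 27 genes of fatty acid and triglyceride synthesis and storage, 13 were lower and 5 higher, with a median of -0.81. The lowest were Lpin1, Elovl3 and Thrsp: Lpin1, a phosphatidate phosphatase, read 14.91 at 0 h and 8.41 at 24 h (difference -6.5), the elongase Elovl3 16.47 at 0 h and 10.21 at 24 h (difference -6.26) and Thrsp, a lipogenic regulator, 13.07 at 0 h and 8.34 at 24 h (difference -4.73). The 5 higher ones, Cidec, Hilpda, Plin2, G0s2 and Pnpla2, all code for proteins of lipid droplets or of their lipolysis. Cidec, which enlarges droplets, read 5.57 at 0 h and 10.99 at 24 h (difference 5.42), and the droplet coat protein Plin2 15.09 at 0 h and 18.18 at 24 h (difference 3.09). G0s2, an inhibitor of the lipase encoded by Pnpla2, differed by 2.15 and Pnpla2 itself by 1.05, or by 0.74 on the YAP-KO baseline. In YAP-KO these were -0.9, 0.04, -0.49 and -1.11 in the same order.

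In fatty acid oxidation, 4 of 26 genes were higher and 5 lower, with a median of 0.05 that became -0.21 after quantile normalization; on the YAP-KO baseline 6 were higher and 3 lower. Pdk4, which holds pyruvate back from oxidation, read 7.28 at 0 h and 11.56 at 24 h (difference 4.28). Cyp4a14 read 15.27 at 0 h and 19.35 at 24 h (difference 4.08), the mitochondrial thioesterase Acot2 7.97 at 0 h and 11.16 at 24 h (difference 3.19) and the peroxisomal bifunctional enzyme Ehhadh 13.99 at 0 h and 15.66 at 24 h (difference 1.67). These are textbook targets of PPAR-alpha, and its gene, Ppara, read 11.81 at 0 h and 9.95 at 24 h (difference -1.86). The central enzymes Cpt1a, Acadvl and Hadha lay within 1.5-fold, at 0.05, 0.07 and 0.22. The others that were lower were Acaa1b at -1.03, Slc27a2 at -1.19 and Slc27a5 at -1.31; the first 2 were -0.33 and -0.53 on the YAP-KO baseline. Cyp4a12a, a male-biased hydroxylase of the same subfamily as Cyp4a14, differed by -2.21.

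Bile acid genes were mostly lower. Of 24 measured, 18 were 2-fold lower, 1 was higher and the median was -2.13. The synthetic enzymes Cyp7a1, which limits the rate of synthesis, and Cyp8b1, which sets the cholate share, differed by -5.46 and -4.18. Slco1b2, an uptake carrier at the blood side, read 17.58 at 0 h and 13.21 at 24 h (difference -4.37). Abcb11, the pump that exports bile salts into bile, read 15.63 at 0 h and 11.29 at 24 h (difference -4.34). Abcc4, which exports bile acids back to blood, was the 1 higher member, at 5.43 at 0 h and 6.69 at 24 h (difference 1.26), and was 0.80 on the YAP-KO baseline. Cholesterol synthesis and handling gave 3 higher and 5 lower of 22 genes with a median of 0.16, which was -0.06 after quantile normalization and -0.64 against the YAP-KO 0 h baseline. Its lowest members were the sterol exporters Abcg8, at -2.98, and Abcg5, at -1.86, followed by Sc5d, Stard4 and Insig1 at -1.71, -1.1 and -1.05. Its highest were the synthetic enzymes Lss, Sqle and Hsd17b7, at 1.74, 1.52 and 1.44. On the YAP-KO baseline none of its genes was 2-fold higher: these 3 were 0.87, 0.14 and 0.64, and Abcg5 was -0.95.

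Genes of the peroxisome and of the respiratory chain differed less. Of 24 peroxisome genes 7 were lower and 1 was higher (median -0.62). Nudt7 was the lowest, and Abcd2, a fatty acid transporter of the peroxisome, the highest, at 7.41 at 0 h and 10.1 at 24 h (difference 2.69). Urate oxidase (Uox) read 18.33 at 0 h and 15.76 at 24 h (difference -2.57). Of 30 subunits of oxidative phosphorylation 1 was higher and 2 were lower, with a median of -0.12; the 1 higher gene was cytochrome c (Cycs), at 1.21, and Sdha and Ndufs8 lay at -1.03 and -1.0. Neither of the last 2 reached 2-fold on the YAP-KO baseline, at -0.94 and -0.62, and Cycs was 0.71 after quantile normalization.

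**Figure D3:**
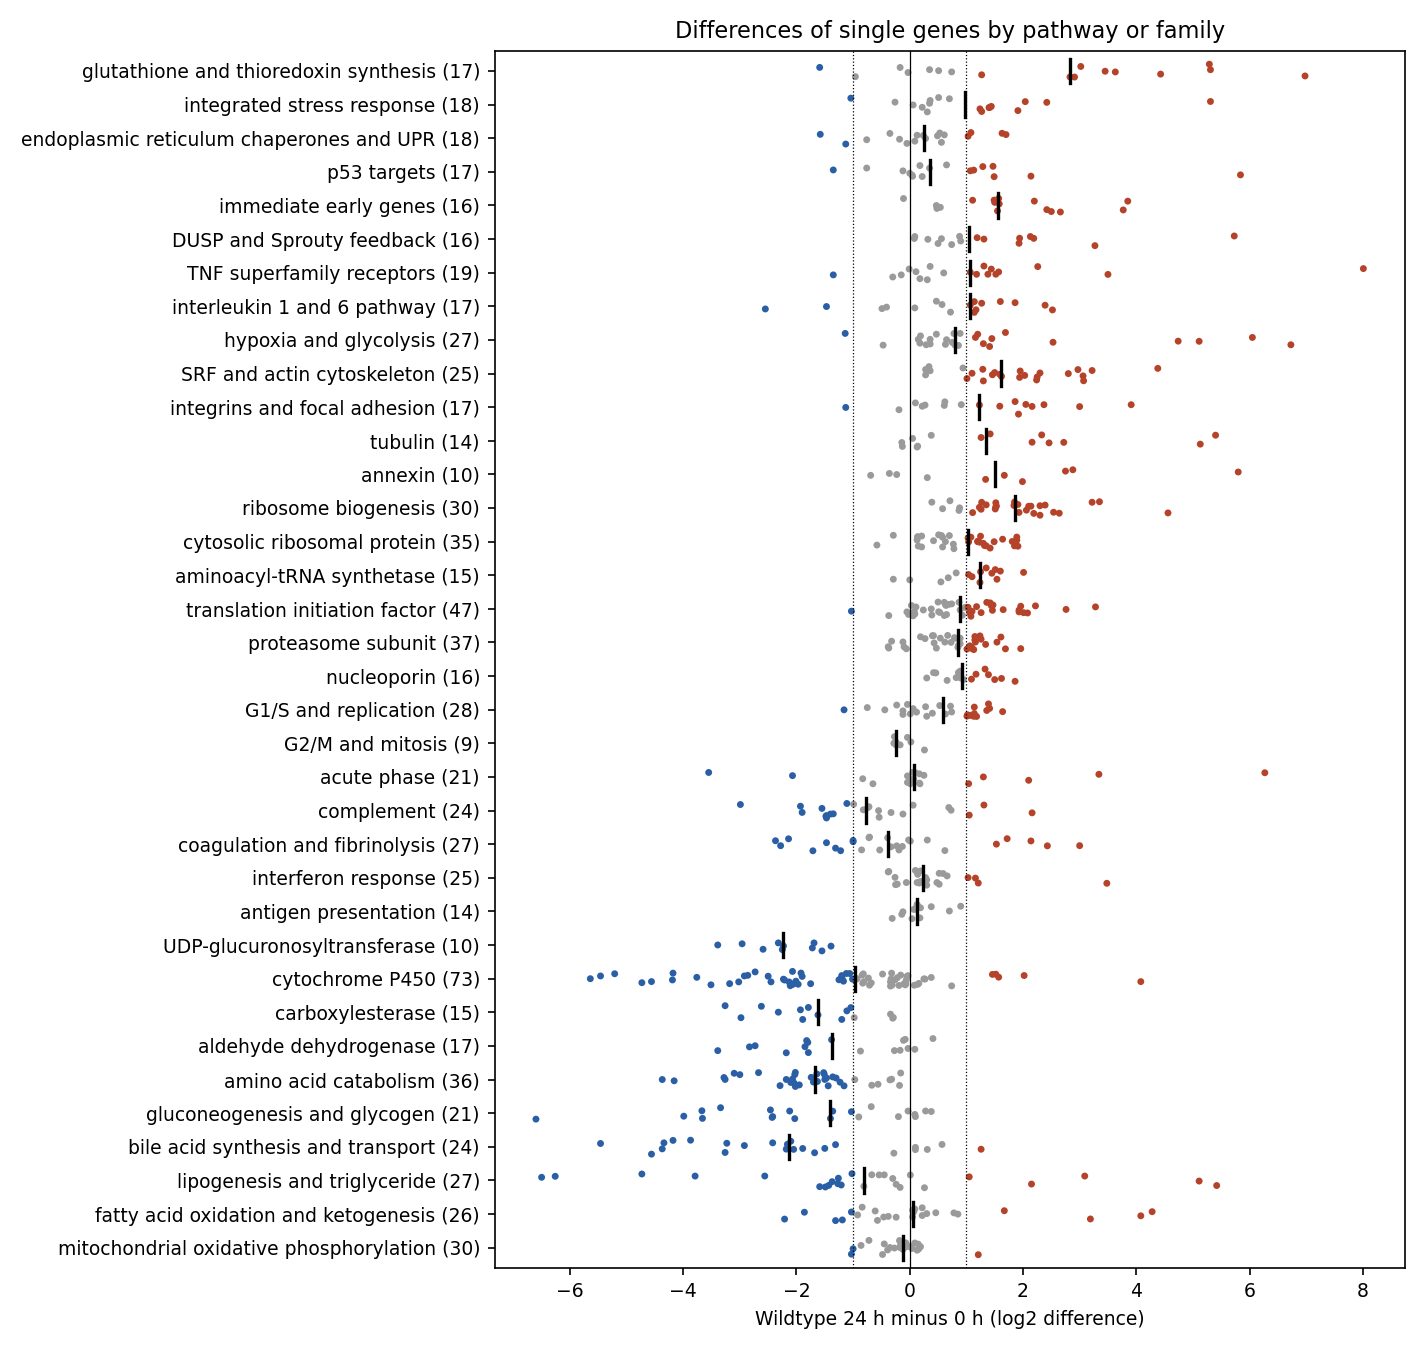
Log2 difference, wildtype 24 h minus 0 h, of each compared gene (points) in chosen lists and families, whose number of genes stands in parentheses; black bars are medians, dotted lines mark 2-fold, and red and blue points are past it. The medians run from -2.24 for UDP-glucuronosyltransferases to 2.83 for glutathione and thioredoxin synthesis, and the median of all genes is 0.07.

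Transcription factors that set hepatocyte identity were lower in part. Of 28 measured, 9 were 2-fold lower and 2 higher, with a median of -0.55. On the YAP-KO baseline 12 were lower and 2 higher, with a median of -0.86. Onecut1 (HNF6) read 10.75 at 0 h and 7.77 at 24 h (difference -2.98), Cebpa 12.94 at 0 h and 10.51 at 24 h (difference -2.43) and the bile acid receptor gene Nr1h4 12.52 at 0 h and 10.1 at 24 h (difference -2.42). Hnf4a, a master regulator of hepatocyte genes, read 12.29 at 0 h and 11.39 at 24 h (difference -0.9), and Foxa2 differed by -0.46; on the YAP-KO baseline these 2 were past 2-fold, at -1.7 and -1.03. The 2 higher members were Sox9, a factor of bile ducts and progenitors, at 6.52 at 0 h and 9.05 at 24 h (difference 2.53), and Cebpd, an acute phase factor, at 5.2 at 0 h and 6.87 at 24 h (difference 1.67), which was 0.67 on the YAP-KO baseline. Mlxipl, the carbohydrate response factor, which is not among the 28, read 12.29 at 0 h and 8.5 at 24 h (difference -3.79).

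Promoter windows of 250 bases before the RefSeq start were available for 9843 of the 12028 measured protein-coding genes (GRCm38.p6). Of these, 295 belong to genes at least 4-fold higher and 225 to genes at least 4-fold lower. The promoters of the lower genes were poorer in CpG, with a median of 4 CpG pairs against 14 in the higher genes and 15 in all, and a median GC content of 50.8% against 58.8% in both other sets. A GC box (GGGCGG, either strand) occurred in 35.6% of the lower, 59.3% of the higher and 55.1% of all measured promoters. In every promoter of the table the share was 32.9%, near that of the lower genes. TATAAA starting 33 to 27 bases before the start on the gene's strand, where a TATA box is placed, occurred in 4.89% of the lower, 3.39% of the higher and 1.42% of all measured promoters. Its share in every promoter of the table was 1.76%. These are descriptions of letters in a window and not of binding.

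The element CAAAGTCCA, a form of the site that HNF4 binds, searched on both strands, occurred in 9 of the 225 promoters of 4-fold lower genes (4.0%), in 0 of the 295 of 4-fold higher genes, in 0.447% of all measured promoters and in 0.381% of every promoter in the table. The 9 are shown because they are the lower genes whose promoters share these letters; capitals mark the element, lower case gives 15 flanking bases where the window allows, and each reads along its gene's strand.
Cyp8b1: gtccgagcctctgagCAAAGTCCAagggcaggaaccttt
Aadat: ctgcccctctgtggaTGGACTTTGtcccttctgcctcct
Cyp2c70: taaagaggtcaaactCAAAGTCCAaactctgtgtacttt
Aspdh: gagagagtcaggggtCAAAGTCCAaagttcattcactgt
Agxt2: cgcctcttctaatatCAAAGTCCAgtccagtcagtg
Cyp2c40: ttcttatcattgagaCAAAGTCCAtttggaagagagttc
Cyp2c67: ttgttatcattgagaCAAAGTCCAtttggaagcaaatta
Cyp2c68: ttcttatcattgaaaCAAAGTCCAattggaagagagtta
Cyp2c69: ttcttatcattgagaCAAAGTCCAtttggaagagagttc
The first 5 lie at chr9:121916349-121916387 (minus strand), chr8:60506037-60506075 (plus strand), chr19:40187327-40187365 (minus strand), chr7:44465368-44465406 (plus strand) and chr15:10358497-10358532 (plus strand), in that order. The last 4 are neighbours on chromosome 19, at chr19:39812836-39812874 (minus strand), chr19:39649144-39649182 (minus strand), chr19:39741155-39741193 (minus strand) and chr19:39886821-39886859 (minus strand), and their flanks are nearly the same letters. With Cyp2c70, 5 of the 9 genes are Cyp2c paralogs, so the 9 are not 9 independent promoters. The genes were lower by similar amounts in that cluster: Cyp2c40, Cyp2c67, Cyp2c68 and Cyp2c69 differed by -2.13, -2.11, -2.01 and -2.07, and probes for such close copies may share signal. Cyp8b1 differed by -4.18, Aadat (a kynurenine aminotransferase) by -3.28, Aspdh by -2.11 and Agxt2 by -2.03.

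Genes that rebuild glutathione and thioredoxin were mostly higher. Of 17 measured, 10 were higher and 1 lower, with a median of 2.83 in wildtype and 0.42 in YAP-KO. On the YAP-KO baseline 9 were higher and 1 lower, with a median of 1.98. Srxn1, which repairs oxidised peroxiredoxins, read 8.05 at 0 h and 15.03 at 24 h (difference 6.98). Slc7a11, the cystine importer, read 4.26 at 0 h and 9.57 at 24 h (difference 5.31), and its partner chain Slc3a2 9.64 at 0 h and 12.47 at 24 h (difference 2.83). Gclc, the catalytic subunit of the first step of glutathione synthesis, read 15.7 at 0 h and 18.61 at 24 h (difference 2.91), with a YAP-KO difference of -1.12. Nqo1, a quinone reductase, read 6.21 at 0 h and 10.64 at 24 h (difference 4.43). The peroxidases that consume glutathione did not reach 2-fold: Gpx1 differed by -0.17, Gpx4 by -0.03 and Gpx2 by -0.96. Me1, which makes NADPH for lipid synthesis as well, was the 1 lower member, at -1.59. The gene of their regulator NRF2, Nfe2l2, read 9.65 at 0 h and 9.24 at 24 h (difference -0.41).

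Metal and heme genes held some of the largest differences. Mt2, a metallothionein that binds zinc and scavenges radicals, read 13.58 at 0 h and was saturated at 24 h, so it was at least 6.35 higher. Mt1 read 13.6 at 0 h and 18.39 at 24 h (difference 4.79). Both metallothioneins were already high on the YAP-KO 0 h array, at 18.29 for Mt1 and saturated for Mt2, and against that array Mt1 at 24 h was 0.10 higher. The heme oxygenase gene Hmox1 read 7.39 at 0 h and 12.68 at 24 h (difference 5.29). The zinc importer Slc39a14 differed by 1.98, or by 0.29 against the YAP-KO 0 h array, and the transferrin receptor Tfrc by 1.79. The list as a whole had 5 higher and 4 lower of 25 genes and a median of 0.10, which was -0.08 after quantile normalization; on the YAP-KO baseline, 2 of 24 were higher. Its lower members were Hjv, a coreceptor that drives hepcidin, at 10.94 at 0 h and 8.44 at 24 h (difference -2.5), Slc30a10, a manganese exporter, at -1.65, Ireb2 at -1.31 and Cpox at -1.28 (-0.92 on the YAP-KO baseline). Hepcidin itself (Hamp) differed by 0.17.

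The integrated stress response, in which a halted translation machinery favours the factor ATF4, gave 9 higher and 1 lower of 18 genes (median 0.97, YAP-KO 0.32). Atf3 read 5.65 at 0 h and 8.07 at 24 h (difference 2.42), Atf4 7.12 at 0 h and 9.16 at 24 h (difference 2.04) and Ddit3 (CHOP) 7.23 at 0 h and 8.63 at 24 h (difference 1.4). Psat1, of serine synthesis, differed by 1.91; Shmt2, a mitochondrial enzyme that splits serine, was the 1 lower member at -1.04. Chaperones and sensors of the endoplasmic reticulum differed less: 4 of 18 were higher and 2 lower, with a median of 0.26. After quantile normalization 2 were higher. On the YAP-KO baseline 0 were higher and 5 lower, and the median was -0.34. Dnajb9 differed by 1.7, Creld2 by 1.63, Xbp1, whose spliced form drives the response, by 1.08 and the chaperone BiP (Hspa5) by 1.03. On that baseline Creld2 and Xbp1 turned to -1.12 and -0.74, Dnajb9 was 0.44 and Hspa5 was 0.05. In the other direction, Herpud1 and Edem1, of the pathway that degrades misfolded proteins, differed by -1.58 and -1.13. Among cytosolic heat shock genes 4 of 12 were higher and 0 lower (1 each on the YAP-KO baseline), and Hspa1a read 5.18 at 0 h and 7.62 at 24 h (difference 2.44).

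Promoters of the highest genes were searched for the elements of stress-activated factors. The AP-1 element TGANTCA, on either strand, occurred in 7.12% of promoters of 4-fold higher genes, 6.67% of those of 4-fold lower genes, 4.89% of all measured promoters and 6.87% of every promoter in the table. The promoters of 4 of the 25 highest genes that held it are shown, with the element in capitals.
Srxn1: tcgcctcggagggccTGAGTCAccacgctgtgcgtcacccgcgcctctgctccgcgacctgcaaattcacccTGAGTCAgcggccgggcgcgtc
Mt2: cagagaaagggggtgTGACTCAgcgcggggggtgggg
Sprr1a: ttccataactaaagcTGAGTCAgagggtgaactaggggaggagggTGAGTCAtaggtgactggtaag
Anxa2: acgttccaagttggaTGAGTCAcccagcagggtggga
They lie at chr2:152105407-152105500 (plus strand), chr8:94172524-94172560 (plus strand), chr3:92485976-92486042 (minus strand) and chr9:69453573-69453609 (plus strand). Sprr1a, a cornified envelope protein induced in injured epithelia and nerves, read 2.87 at 0 h and 8.77 at 24 h (difference 5.9), and 5.85 was its difference in YAP-KO. Anxa2, a membrane-binding annexin, read 5.93 at 0 h and 11.73 at 24 h (difference 5.8). In Srxn1 and Sprr1a the AP-1 element occurred 2 times each. The antioxidant response core TGACNNNGC, also searched on either strand, occurred in 14.6% of promoters of 4-fold higher genes and 12.4% of those of 4-fold lower genes. Its share was 11.9% in all measured promoters and 10.1% in every promoter of the table. In Mt2 and Sprr1a a match of this core overlaps marked AP-1 letters, so those letters are not particular to AP-1.

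The C/EBP-ATF composite element TTGCATCA, known for amino acid response genes, was rare: it was found in 0.678% of promoters of 4-fold higher genes, 0.444% of those of 4-fold lower genes and 0.64% of all measured ones. Slc7a11 and Atf3 carry it, and so does G6pc, the fourth lowest gene; the 3 are shown with the element in capitals, on either strand.
Slc7a11: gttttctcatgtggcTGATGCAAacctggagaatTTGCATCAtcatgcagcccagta
Atf3: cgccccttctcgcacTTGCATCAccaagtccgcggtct
G6pc: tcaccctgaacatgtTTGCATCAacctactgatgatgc
They lie at chr3:50443638-50443694 (minus strand), chr1:191183421-191183458 (minus strand) and chr11:101367563-101367600 (plus strand). Genes with the same letters thus stood at 5.31, 2.42 and -6.6. The metal response core TGCNCNC occurred in 50.8% of promoters of 4-fold higher genes and 50.2% of all measured ones.

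Immediate early genes, switched on without new protein synthesis, were higher at 24 h. Of 16 measured, 12 were higher and 0 lower, with a median of 1.56 in wildtype and 0.02 in YAP-KO; 6 others were below the level filter. Jun read 5.44 at 0 h and 9.29 at 24 h (difference 3.85), Myc 5.49 at 0 h and 9.26 at 24 h (difference 3.77) and Egr1 6.13 at 0 h and 8.79 at 24 h (difference 2.66). Their YAP-KO differences were 1.6, -0.63 and -0.53. Feedback phosphatases and Sprouty proteins, which MAP kinase signalling induces and which curb it, gave 8 higher of 16 (median 1.04, YAP-KO 0.15). Dusp5 read 4.9 at 0 h and 10.63 at 24 h (difference 5.73), Dusp6 8.03 at 0 h and 11.3 at 24 h (difference 3.27) and Dusp4 5.6 at 0 h and 7.79 at 24 h (difference 2.19). The remaining 8, Errfi1 at 0.08 and Dusp14 at 0.09 among them, did not reach 2-fold.

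Growth factor and receptor genes differed in both directions. Of 23 measured, 6 were higher and 4 lower; 4 were higher after quantile normalization and also on the YAP-KO baseline. Epiregulin (Ereg) read 4.92 at 0 h and 8.21 at 24 h (difference 3.29), betacellulin (Btc) 6.19 at 0 h and 8.92 at 24 h (difference 2.73) and heparin-binding EGF (Hbegf) 4.5 at 0 h and 7.04 at 24 h (difference 2.54). Among receptors, Egfr read 16.77 at 0 h and 15.11 at 24 h (difference -1.66), Erbb3 11.75 at 0 h and 9.0 at 24 h (difference -2.75) and the growth hormone receptor Ghr 12.12 at 0 h and 9.36 at 24 h (difference -2.76). Hepatocyte growth factor (Hgf) differed by 1.04 and its receptor Met by -0.04. The ligand gene Fgf1 differed by -1.03. Hgf and Fgf1 were 0.81 and -0.60 on the YAP-KO baseline. Cytokine receptors also differed in both directions: Osmr, the oncostatin M receptor, read 6.91 at 0 h and 9.3 at 24 h (difference 2.39), Il1r1 12.04 at 0 h and 13.64 at 24 h (difference 1.6) and Il6st 12.89 at 0 h and 14.06 at 24 h (difference 1.17), while Lifr, which pairs with Il6st for leukemia inhibitory factor, read 14.22 at 0 h and 11.67 at 24 h (difference -2.55) and the interleukin 1 coreceptor Il1rap 8.29 at 0 h and 6.82 at 24 h (difference -1.47). The kinases and factor downstream, Jak1, Jak2 and Stat3, differed by 1.27, 1.14 and 1.07. The interleukin 1 and 6 list had 9 higher and 2 lower of 17 genes, 6 higher and 2 lower after quantile normalization, and 4 higher and 6 lower on the YAP-KO baseline. There Il1r1 (-2.04) and Stat3 (-0.17) turned sign, and Il6st and Jak1 were 0.39 and 0.81. Jak2 was 0.92 after quantile normalization.

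Receptors of the TNF family were higher for 10 of 19 genes and lower for 1, with a median of 1.07 (0.62 on the YAP-KO baseline) and of 0.29 in YAP-KO. After Tnfrsf12a, the largest were Tnfrsf23, a decoy receptor of mouse, at 4.86 at 0 h and 8.36 at 24 h (difference 3.5), and osteoprotegerin (Tnfrsf11b) at 5.56 at 0 h and 7.82 at 24 h (difference 2.26). The TNF receptor gene Tnfrsf1a read 8.15 at 0 h and 9.67 at 24 h (difference 1.52), but 0.07 above the YAP-KO 0 h array, and its ubiquitin-editing inhibitor Tnfaip3 5.37 at 0 h and 6.94 at 24 h (difference 1.57). The death receptor gene Fas was the 1 lower member, at 9.57 at 0 h and 8.22 at 24 h (difference -1.35), and its difference was -0.27 when its probe sets were averaged. Of 19 genes of the BCL2 family and of cell death 6 were higher and 0 lower (median 0.32), and 4 were higher on the YAP-KO baseline. The survival gene Bcl2l1 read 7.65 at 0 h and 10.23 at 24 h (difference 2.58) and Mcl1 10.89 at 0 h and 12.21 at 24 h (difference 1.32), which was 0.90 on that baseline; the necroptosis effector Mlkl read 6.71 at 0 h and 8.9 at 24 h (difference 2.19) and its kinase Ripk3 differed by 0.35. Pro-death BH3-only genes differed little, with Bbc3 at -0.12, Bid at -0.03 and Bmf at -0.22.

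Targets of p53 were mixed, with 7 of 17 higher, 1 lower and a median of 0.35; on the YAP-KO baseline 3 were higher and 2 lower. Cdkn1a, which encodes the cell cycle inhibitor p21, read 8.7 at 0 h and 14.54 at 24 h (difference 5.84). On the YAP-KO arrays Cdkn1a read 12.3 at 0 h and 13.16 at 24 h. Mdm2, the ubiquitin ligase of p53, differed by 1.47 and Plk2 by 2.14, while the lower member, Fas, is described above and Ccng1 and Sesn1 differed by 0.04 and 0.05. Mdm2 was 0.82 and Ccng1 -1.19 on the YAP-KO baseline.

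The actin cytoskeleton and the genes that serum response factor controls were higher as a class. Of 25 measured, 20 were higher and 0 lower, with a median of 1.62 and of 0.78 in YAP-KO. Transgelin (Tagln) read 5.54 at 0 h and 9.92 at 24 h (difference 4.38), Tpm4, a tropomyosin, 9.87 at 0 h and 13.09 at 24 h (difference 3.22), moesin (Msn) 8.38 at 0 h and 11.44 at 24 h (difference 3.06) and vinculin (Vcl) 9.61 at 0 h and 12.41 at 24 h (difference 2.8). The 25 include Actb, a common reference gene for normalisation, at 15.51 at 0 h and 17.81 at 24 h (difference 2.3). Integrins and focal adhesion genes gave 9 higher and 1 lower of 17: Itga3, a laminin receptor chain, read 5.79 at 0 h and 9.7 at 24 h (difference 3.91), Plaur, the urokinase receptor, 5.02 at 0 h and 8.02 at 24 h (difference 3.0), and Parva, the lower one, -1.13.

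Other families of cell structure were higher in part. Of 14 tubulins 8 were higher and 0 lower, with Tubb2a at 10.41 at 0 h and 15.81 at 24 h (difference 5.4) and Tubb6 at 5.59 at 0 h and 10.72 at 24 h (difference 5.13); the YAP-KO difference of Tubb2a was -0.73. On the YAP-KO baseline 6 tubulins were higher, and the tubulin median was 0.72 where it was 1.34 on the wildtype baseline. Annexins were higher for 6 of 10 and lower for 0. In the keratin family 2 of 14 genes were 2-fold higher (14.3%, against 12.8% of all genes) and 0 lower. The 2 were the pair that hepatocytes use: Krt8 read 12.47 at 0 h and 18.51 at 24 h (difference 6.04) and Krt18 11.9 at 0 h and 18.0 at 24 h (difference 6.1). The bile duct keratins Krt7 and Krt19 differed by -0.04 and -0.11. They read 4.34 and 4.56 at 0 h, close to the readings of silent genes, so a change in them could hardly be seen. Junction genes gave 6 higher and 1 lower of 21: E-cadherin (Cdh1) read 8.71 at 0 h and 12.45 at 24 h (difference 3.74) and desmoplakin (Dsp) 9.87 at 0 h and 11.98 at 24 h (difference 2.11), while Dsc2, a desmosomal cadherin, differed by -1.55 and N-cadherin (Cdh2) by -0.96. The claudins and gap junction genes of the list, apart from Cldn14 at 1.05, were within 2-fold. On the YAP-KO baseline 4 junction genes were higher and 0 lower, with Dsc2 at -0.95 and Cldn14 at 0.34.

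Genes for building ribosomes were higher almost throughout. Of 30 measured, 25 were higher and 0 lower, with a median of 1.85; in YAP-KO 1 was higher and the median was 0.34. Nop58, a core protein of small nucleolar particles, read 9.71 at 0 h and 14.27 at 24 h (difference 4.56). Ddx21, a nucleolar helicase, read 9.21 at 0 h and 12.56 at 24 h (difference 3.35), nucleolin (Ncl) 11.2 at 0 h and 14.42 at 24 h (difference 3.22) and nucleophosmin (Npm1) 12.17 at 0 h and 14.71 at 24 h (difference 2.54). The YAP-KO differences of these were 0.19, 0.63, 1.14 and 0.87. The lowest member, Gar1, differed by 0.39. Other protein synthesis genes were higher in part: 10 of 15 aminoacyl-tRNA synthetases, 20 of 47 initiation factors and 18 of 35 cytosolic ribosomal proteins were higher (11 of the last after quantile normalization), against 3 of 75 mitochondrial ribosomal proteins. On the YAP-KO baseline 7 of the 15 synthetases and 16 of the 47 initiation factors were higher. The 1 initiation gene that was lower was Eif4ebp2, at -1.03. Eif6, which keeps ribosomal subunits apart, read 8.35 at 0 h and 11.63 at 24 h (difference 3.28), and Rars, the arginine synthetase, 9.76 at 0 h and 11.77 at 24 h (difference 2.01). The cytosolic ribosomal proteins have many processed copies in the genome, which the array may not separate.

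Genes for folding and degrading proteins were higher in part. Of 8 chaperonin subunits 5 were higher, led by Cct2 at 13.12 at 0 h and 15.15 at 24 h (difference 2.03), and of 37 proteasome subunits 15 were higher and 0 lower, led by Psmd8 at 11.55 at 0 h and 13.51 at 24 h (difference 1.96). After quantile normalization 7 of the 37 were higher, and on the YAP-KO baseline 11. The interferon-induced proteasome subunits Psmb8 and Psmb9 were the lowest of the 37, at -0.37 and -0.38. Nucleoporins, which form the nuclear pore, were higher for 7 of 16, with Nup50 at 1.86. In polyamine, serine and nucleotide synthesis, 10 of 21 were higher and 4 lower (median 0.77). Odc1, the first enzyme of polyamine synthesis, read 11.14 at 0 h and 14.96 at 24 h (difference 3.82), the spermidine synthase Srm 7.13 at 0 h and 10.74 at 24 h (difference 3.61) and Ctps, which makes CTP, 5.83 at 0 h and 9.34 at 24 h (difference 3.51). The lower ones were Mthfd1 at -2.46, Shmt1 at -2.11, Paics at -1.8 and Shmt2; the first 2 are cytosolic folate enzymes, and the mitochondrial folate enzyme Mthfd1l differed by 2.78.

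Cell cycle genes of S phase entry were higher in part, and those of mitosis were mostly too dim to be measured. Of 28 genes of the G1/S transition and replication, 11 were higher and 1 lower, with a median of 0.58; after quantile normalization 6 were higher. Mcm6, of the replicative helicase, read 5.37 at 0 h and 7.01 at 24 h (difference 1.64), Pcna 8.58 at 0 h and 9.94 at 24 h (difference 1.36) and Ccnd2 6.56 at 0 h and 7.95 at 24 h (difference 1.39). Mcm10, needed to fire replication origins, was the 1 lower member, at 6.16 at 0 h and 5.0 at 24 h (difference -1.16). Of the G2/M genes 9 were measured and 13 lay below the level filter. None of the 9 reached 2-fold in either direction: Mki67 read 5.21 at 0 h and 5.23 at 24 h (difference 0.02) and Cdk1 4.51 at 0 h and 4.27 at 24 h (difference -0.24).

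Secreted liver proteins differed in both directions within classes. In the acute phase list 5 of 21 were higher and 2 lower (median 0.07; 8 higher and 1 lower in YAP-KO). On the YAP-KO baseline 2 were higher and 6 lower. Lcn2, which binds bacterial siderophores, read 5.43 at 0 h and 11.7 at 24 h (difference 6.27), Apcs (serum amyloid P) 10.81 at 0 h and 14.15 at 24 h (difference 3.34) and Lrg1 11.36 at 0 h and 13.46 at 24 h (difference 2.1); Lrg1 was 0.17 on the YAP-KO baseline. The lower ones were Saa4 at 18.47 at 0 h and 14.92 at 24 h (difference -3.55) and Crp at 15.6 at 0 h and 13.53 at 24 h (difference -2.07). The inducible serum amyloid Saa1 read 10.52 at 0 h and 9.69 at 24 h (difference -0.83), and Saa2 differed by -0.65. On the YAP-KO arrays Saa1 read 14.49 at 0 h and 17.05 at 24 h, and on the YAP-KO baseline Saa1 and Saa2 were -4.8 and -4.96. Complement genes gave 10 lower and 3 higher of 24 (median -0.78 in wildtype, 0.30 in YAP-KO). After quantile normalization 15 were lower and 2 higher, with a median of -1.15. The liver-made components C6, Mbl2 and Mbl1 read 14.58 at 0 h and 11.59 at 24 h (difference -2.99), 13.95 at 0 h and 12.02 at 24 h (difference -1.93) and 12.24 at 0 h and 10.34 at 24 h (difference -1.9). The 3 higher ones, C1qb at 8.94 at 0 h and 11.1 at 24 h (difference 2.16), C1qc at 1.05 and properdin (Cfp) at 1.31, are made largely by macrophages and other leukocytes. C1qc was 0.80 after quantile normalization, and Cfp 0.91 on the YAP-KO baseline.

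Coagulation genes also differed in both directions. Of 27 compared, 9 were lower and 5 higher. Heparin cofactor II (Serpind1) differed by -2.37; F13b read 14.36 at 0 h and 12.08 at 24 h (difference -2.28) and Tfpi2 12.08 at 0 h and 9.94 at 24 h (difference -2.14). The higher ones were Plaur, F13a1 of macrophages and platelets at 4.65 at 0 h and 7.08 at 24 h (difference 2.43), tissue factor (F3) at 5.15 at 0 h and 7.29 at 24 h (difference 2.14), Plat at 1.72 and Thbd at 1.53. Prothrombin (F2) differed by -0.53. Among apolipoproteins and lipases, Apoa4 stood apart at 11.25 at 0 h and 16.84 at 24 h (difference 5.59); Mttp and Angptl4 were the other higher ones, at 1.41 and 1.28, and Lipg and Angptl8 the lower ones, at -2.49 and -1.11. Lipg was -0.70 on the YAP-KO baseline. In YAP-KO Angptl4 differed by -2.14 and Angptl8 by 3.04. Of 16 carrier and binding proteins, Igfbp1, which holds insulin-like growth factors, read 12.31 at 0 h and 16.53 at 24 h (difference 4.22), and the corticosteroid carrier Serpina6 14.05 at 0 h and 8.66 at 24 h (difference -5.39). Alpha-fetoprotein (Afp) was also higher, at 4.36 at 0 h and 5.45 at 24 h (difference 1.09), and Igfals, Serpina7 and Igfbp4 lower, at -2.33, -2.0 and -1.19 (the last -0.90 on the YAP-KO baseline).

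Chemokines and their receptors were higher for 11 of 22 genes and lower for 0, with 5 below the level filter. Cxcl1, a neutrophil attractant, read 6.29 at 0 h and 12.31 at 24 h (difference 6.02), Ccl2, a monocyte attractant, 5.6 at 0 h and 8.24 at 24 h (difference 2.64), Cxcl13 8.39 at 0 h and 10.91 at 24 h (difference 2.52) and Ccr1 3.6 at 0 h and 6.32 at 24 h (difference 2.72). The lymphocyte attractants Cxcl9 and Ccl5 differed by -0.26 and 0.46. Interferon-response genes gave 4 higher of 25 and a median of 0.24, and 3 of the 4 lay just past 2-fold, Ifit3 at 1.21, Usp18 at 1.16 and Ifit2 at 1.03. These 3 were 0.28, 0.70 and 0.98 on the YAP-KO baseline, where 1 interferon-response gene was higher and 3 lower; 2 were higher after quantile normalization. Rsad2 (viperin) read 7.0 at 0 h and 10.48 at 24 h (difference 3.48). None of the 14 antigen presentation genes reached 2-fold; the class II genes H2-Ab1 and H2-Aa differed by 0.7 and 0.19.

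The NF-kappa-B element, searched on both strands as GGG, any 2 bases and TTTCC, occurred in 3.05% of promoters of 4-fold higher genes, 0.444% of those of 4-fold lower genes, 1.41% of all measured promoters and 1.4% of every promoter in the table. The 9 higher genes with it were Cxcl1, Cxcl2, Vim, Tuba1c, Cd9, Dis3, Marco, Nop58 and Dusp5. Of these, Cxcl2 passed the level filter only through its wildtype 24 h reading. The stretches of Cxcl1, which holds it 2 times, and Dusp5 are shown as the 2 largest differences among the 9.
Cxcl1: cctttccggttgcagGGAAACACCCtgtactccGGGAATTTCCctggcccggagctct
Dusp5: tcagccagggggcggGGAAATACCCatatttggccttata
They lie at chr5:90891141-90891198 (plus strand) and chr19:53529040-53529079 (plus strand).

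Marker genes of liver cell types differed unevenly within each type. For hepatocytes, 4 of 10 markers were saturated on both arrays; of the 6 compared, 1 (Asgr2, at 11.96 at 0 h and 10.17 at 24 h (difference -1.79)) was 2-fold lower. Pericentral markers were lower for 7 of 10, with Rgn at 18.14 at 0 h and 13.39 at 24 h (difference -4.75) and Gulo at 14.94 at 0 h and 11.86 at 24 h (difference -3.08), and Lect2 differed by -0.35. Periportal markers ranged from Cdh1 and Ctsc, both higher (3.74 and 1.65), to Hal, Pck1 and Cyp2f2, all lower (-4.16, -2.43 and -1.06). Neutrophil markers were higher for 7 of 10, with S100a8 at 5.41 at 0 h and 10.06 at 24 h (difference 4.65) and Retnlg at 4.66 at 0 h and 8.78 at 24 h (difference 4.12), but Ly6g and Camp differed by -0.63 and -0.65, and 5 markers were below the level filter. Without the filter 7 of 15 neutrophil markers were higher, and their median was 0.58 where it was 2.6 with the filter. Of 16 monocyte and macrophage markers 7 were higher, with Cd14 at 5.46 at 0 h and 10.12 at 24 h (difference 4.66) and Cd68 at 7.16 at 0 h and 11.49 at 24 h (difference 4.33); F10, which hepatocytes make too, was the 1 lower, at -1.0. F10 and Cyp2f2 were -0.97 and -0.94 on the YAP-KO baseline. Lcn2, 1 of the 7 higher neutrophil markers, is also in the acute phase list.

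Kupffer cell markers were higher for 5 of 12 and lower for 1, and higher for 3 after quantile normalization. Marco read 6.3 at 0 h and 9.46 at 24 h (difference 3.16), Vsig4 10.44 at 0 h and 12.09 at 24 h (difference 1.65) and Clec4f, the marker most particular to Kupffer cells in textbooks, 9.52 at 0 h and 9.52 at 24 h (difference 0.0); C6, which hepatocytes make, was lower as given above. Endothelial markers were higher for 3 of 14: Lyve1 read 8.06 at 0 h and 13.57 at 24 h (difference 5.51), Cdh5 9.98 at 0 h and 13.21 at 24 h (difference 3.23) and Pecam1 7.4 at 0 h and 8.53 at 24 h (difference 1.13), which was 0.89 after quantile normalization. Stab2, Clec4g and Kdr, which also mark sinusoidal endothelium, differed by 0.15, -0.26 and -0.63. Among stellate markers Acta2, which marks activation, read 6.8 at 0 h and 9.87 at 24 h (difference 3.07), Dcn 12.97 at 0 h and 14.38 at 24 h (difference 1.41), Pdgfrb 6.14 at 0 h and 7.34 at 24 h (difference 1.2) and Lrat, which stores retinoids, 7.74 at 0 h and 6.42 at 24 h (difference -1.32), while Col1a1 and Col3a1 differed by -0.06 and -0.41. Bile duct and progenitor markers gave Cd24a at 6.75 at 0 h and 9.38 at 24 h (difference 2.63), Sox9 as above and Epcam at 0.07. Lymphocyte markers were mostly below the level filter: 2 of 10 T cell, 3 of 10 NK cell and 4 of 9 B and plasma cell markers were measured, and of these Xbp1, which hepatocytes express, reached 2-fold. Platelet genes gave 3 higher of 6, with Ppbp at 4.58 at 0 h and 6.72 at 24 h (difference 2.14) and Pf4 at 4.66 at 0 h and 6.08 at 24 h (difference 1.42). Pf4 and Pdgfrb were 0.80 and 0.64 on the YAP-KO baseline. Of 3 erythroid markers measured, Tfrc was higher as given above and Alas2 lower, at -2.24. Globin probe sets carry several symbols and are outside the genes compared. The probe sets that each carry both Hba-a1 and Hba-a2 differed by 3.56 and 3.61, and those of the Hbb genes by 2.47 and 2.17. On the YAP-KO arrays the first of these read 10.25 at 0 h and 10.91 at 24 h. How far changes in cell composition entered the lists above was not tested.

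**Figure D4:**
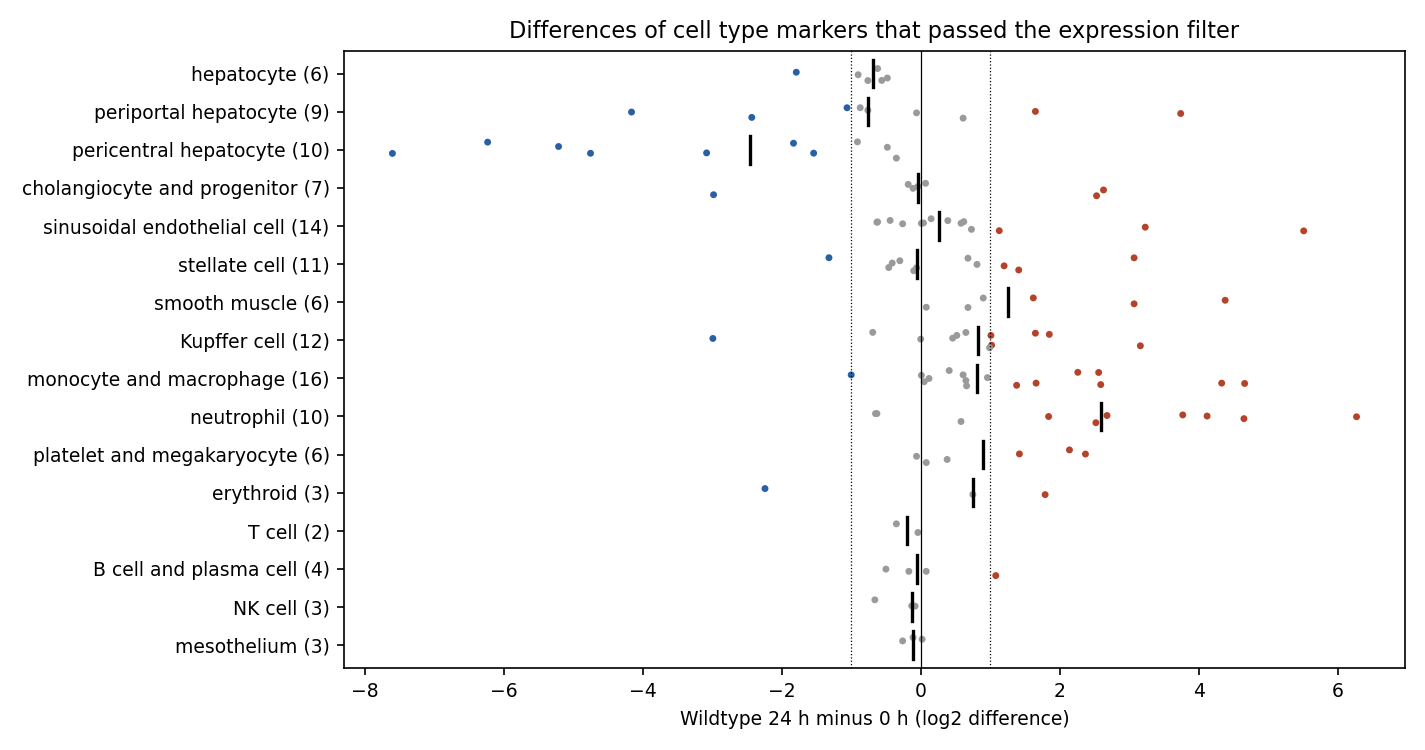
Log2 difference, wildtype 24 h minus 0 h, of each compared marker gene by cell type (points), with the number of genes in parentheses, the median as a black bar and 2-fold as dotted lines; red and blue points are past 2-fold. Pericentral hepatocyte markers reach down to -7.60 and neutrophil markers up to 6.27, the value of Lcn2, which the acute phase list also holds.

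Matrix genes were higher for 13 of 34 and lower for 1. Beside Thbs1, the protease Adamts1 read 6.01 at 0 h and 9.9 at 24 h (difference 3.89), Mmp14 7.44 at 0 h and 10.1 at 24 h (difference 2.66) and Lamc1, a laminin chain, 6.61 at 0 h and 8.89 at 24 h (difference 2.28). Basement membrane collagens Col4a1 and Col4a2 differed by 1.62 and 1.36, fibrillar collagens such as Col1a2 by -0.06, and Col18a1, a hepatocyte-made collagen, by -1.72. Of 25 genes of TGF-beta, activin and BMP signalling 9 were higher and 0 lower: Tgif1, a corepressor, read 6.97 at 0 h and 10.61 at 24 h (difference 3.64), Tgfbr2 7.76 at 0 h and 10.62 at 24 h (difference 2.86) and Id1 6.79 at 0 h and 9.05 at 24 h (difference 2.26). Wnt genes gave 4 lower and 1 higher of 17. The lower ones were Lgr5 at 6.12 at 0 h and 4.29 at 24 h (difference -1.83), Tbx3 at -1.54, Lgr4 at -1.24 and Notum at -1.15, of which Lgr5, Tbx3 and Notum are targets of the pathway around central veins. The higher one was the ligand gene Rspo3, at 7.48 at 0 h and 8.74 at 24 h (difference 1.26), or 0.95 on the YAP-KO baseline.

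Solute carriers outside the organic ion and mitochondrial families differed in both directions: of 160 measured, 28 were higher and 32 lower. The phosphate importers Slc20a1 and Slc20a2 read 8.06 at 0 h and 11.66 at 24 h (difference 3.6), and 10.87 at 0 h and 14.35 at 24 h (difference 3.48). The monocarboxylate family member Slc16a6 read 7.7 at 0 h and 12.06 at 24 h (difference 4.36) and Slc16a10, an aromatic amino acid transporter, 11.89 at 0 h and 8.51 at 24 h (difference -3.38). Of 38 mitochondrial carriers 4 were higher and 6 lower, with Slc25a30 at 8.86 at 0 h and 12.41 at 24 h (difference 3.55) and Slc25a24 at 5.93 at 0 h and 8.7 at 24 h (difference 2.77), followed by Slc25a37 and Slc25a47 at 1.41 and 1.09 (the last 0.64 after quantile normalization), and the lowest was Slc25a23 at -2.17; in YAP-KO Slc25a30 differed by -1.05.

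Clock genes differed in both directions. Of 17 measured, 5 were lower and 2 higher; on the YAP-KO baseline 2 were lower and 3 higher. The output factors Dbp and Hlf, which bind the D-box, differed by -2.05 and -1.4, and Tef by -1.27. The repressor genes Nr1d1 and Nr1d2 differed by -1.5 and -1.12. Hlf, Tef and Nr1d2 were -0.61, -0.53 and -0.90 on the YAP-KO baseline. Per1 read 7.39 at 0 h and 9.42 at 24 h (difference 2.03) and Bhlhe40 10.32 at 0 h and 11.69 at 24 h (difference 1.37), while the core activators Arntl and Clock differed by -0.19 and -0.65. No label used here gives the hour of day of sampling. The D-box TTATGNAA occurred in 6.67% of promoters of 4-fold lower genes, 3.05% of those of 4-fold higher genes and 2.18% of all measured promoters. Its share in every promoter of the table was 3.23%.

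Some genes past 2-fold lay side by side on a chromosome. Among 17905 measured genes placed on the RefSeq annotation, 22 runs of at least 4 neighbours were all 2-fold in one direction, 10 lower and 12 higher. They held 118 of the 3383 genes past 2-fold (3.49%). The longest were 10 Cyp2c genes on chromosome 19, from -5.64 to -2.01, and 10 neighbours on chromosome 4, all but 1 of them pseudogenes of major urinary proteins, from -4.38 to -1.72. On the YAP-KO baseline this second run was broken. Mup-ps7, Mup-ps8, Mup-ps9 and Mup-ps15 read 11.94, 12.37, 12.71 and 13.26 on the wildtype 24 h array. On the YAP-KO 0 h array they read 12.77, 13.01, 13.65 and 13.92, within 2-fold of those readings. A run of 8 on chromosome 5 held 6 genes of the Ugt2 family and the sulfotransferases Sult1b1 and Sult1d1, from -2.96 to -1.69. A run of 5 on chromosome 8 was formed by the carboxylesterases Ces1d to Ces1h. Of these, Ces1h read 4.96 on the wildtype 24 h array and 5.82 on the YAP-KO 0 h array, which is within 2-fold. The largest run of protein-coding genes that were higher was that of the chemokines Ppbp, Pf4, Cxcl3, Cxcl1 and Cxcl2 on chromosome 5, from 1.42 to 6.02. Its length depends on Cxcl2, which passed the level filter only through its wildtype 24 h reading. It depends also on Pf4, which was 0.80 on the YAP-KO baseline. Another run of higher genes on chromosome 5 held the EGF ligands Ereg and Btc. Runs of close paralogs can share signal between probe sets, and their length is not a count of independent genes.

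**Figure D5:**
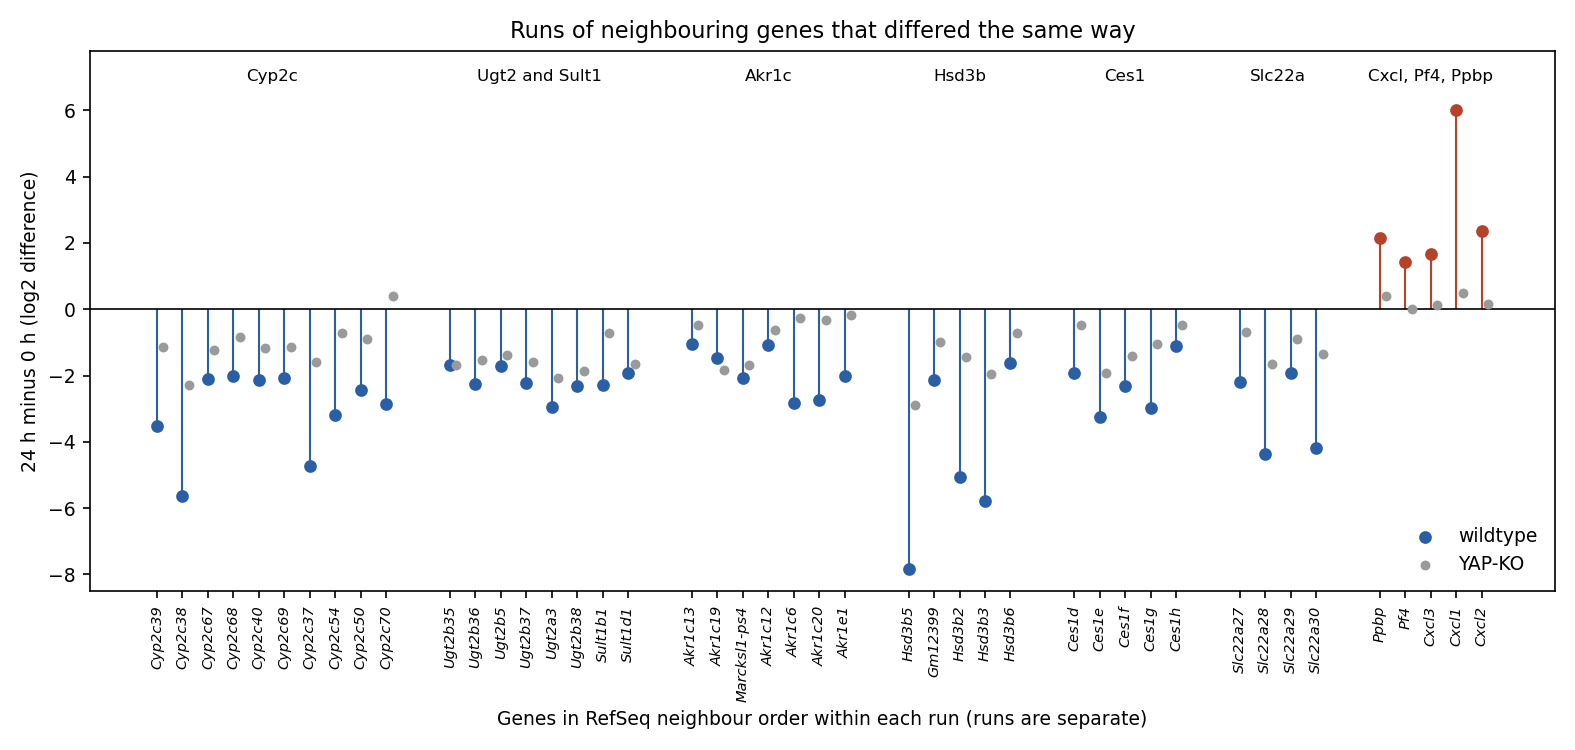
Log2 difference, 24 h minus 0 h, of each gene in 7 chosen runs of neighbouring genes, in wildtype (large points on stems, blue for lower and red for higher) and in YAP-KO (small grey points). In wildtype every gene shown is past 2-fold, as the choice of runs fixes. In YAP-KO the 5 genes of the Cxcl, Pf4 and Ppbp run lie between 0.0 and 0.49. Of that run, Cxcl2 passed the level filter only through its wildtype 24 h reading.

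Precursor probe sets of 321 microRNA genes were measured, of which 12 were higher and 47 lower (median -0.27). The array reads precursor or host transcripts and not mature microRNA. Of the 47 lower ones 20 sat in 1 place: these were 20 of the 64 measured microRNA genes within Sfmbt2, a cluster of near-copies, and 0 of the 64 were higher. Most of these 20 were within 2-fold on the YAP-KO baseline, so their deficit rests on the wildtype 0 h array. Mir466d read 9.79 at 0 h and 7.39 at 24 h, but 7.75 on the YAP-KO 0 h array. Mir467e read 9.27 at 0 h and 7.52 at 24 h, but 7.65 on that array. Of 20 microRNA genes past 2-fold with a measured host gene, 17 had the sign of the host and 9 had a host that was 2-fold the same way. Mir101c had the largest excess, at 4.21 at 0 h and 8.35 at 24 h (difference 4.14); Mir350 read 3.96 at 0 h and 5.92 at 24 h (difference 1.96) and its host Cep170 7.51 at 0 h and 11.49 at 24 h (difference 3.98); Mir107 read 6.5 at 0 h and 5.18 at 24 h (difference -1.32) and its host Pank1, a pantothenate kinase, 13.86 at 0 h and 10.38 at 24 h (difference -3.48). Mir350 read 3.96 and 4.54 on the YAP-KO arrays and would not have reached the level filter without its wildtype 24 h reading. For Mir101c, Mir350 and Mir107, 1 mature sequence each is shown with the seed, bases 2 to 8, in capitals. No seed is shared among those shown. Mir350 and Mir107 also have a 5p arm, not shown, and the array does not tell the arms apart.
mmu-miR-101c: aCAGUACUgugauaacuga
mmu-miR-350-3p: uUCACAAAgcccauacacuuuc
mmu-miR-107-3p: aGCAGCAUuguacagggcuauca
They are from RefSeq, at chr9:3038680-3038698, chr1:176772342-176772363 and chr19:34820700-34820722 of GRCm38.p6, each on the minus strand.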

How the data were processed

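Liver RNA of wildtype and YAP-KO mice was read on 4 arrays, 1 per genotype and time, each a pool of 3 mice. The authors deposited 1 table of log2 values; the log base was inferred from their range (2.24 to 19.93), and no source used here gives the background correction, summarisation or normalization. No control-probe background or detection call was used, and the number of arrays limits the precision.

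Of 65956 probe sets, the platform annotation gave 30604 with 1 gene symbol, 2146 with several and 33206 with none. No gene was compared or counted from a probe set with several, and the globin probe sets are given as readings only. Through Entrez identifiers, 827 symbols were updated to RefSeq. For 355 genes with several probe sets the brightest was taken. Values within 0.01 of an array's highest were called saturated; a difference from one is given as "at least". Differences were computed as deposited, with Python 3.11.15, pandas 2.3.3, numpy 2.4.6 and matplotlib 3.10.9. With 1 array per group no test was made, and 2-fold is a size, not a significance threshold. The counting code was tested on simulated data.

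The compared genes, lists, families, markers and motifs were chosen with earlier results of these data known. Genes were named by rule: the 25 largest differences in each direction, without predicted, receptor-segment and small RNA genes; in each list up to 5 of the largest and every member that went against the median by 2-fold; defining markers; and genes of neighbour runs. The solute carriers, of which a few are named, and other textbook members were chosen after their values were seen. The alternatives tried were quantile normalization, median centring, averaged probe sets, no filter and the 60th percentile, leaving out saturated genes, the YAP-KO 0 h array as baseline, and, added after seeing the data, naming also probe sets whose several symbols share 1 Entrez gene.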

Additional observations from a re-analysis of the deposited data

Results flagged for a closer look

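For 11 of the genes named, the 24 h difference was past 2-fold in one direction in wildtype and past 2-fold in the other in YAP-KO. Over all genes measured, 26 were higher in wildtype and lower in YAP-KO, and 2 were the reverse. Each value rests on 1 array per group, and the difference between the genotypes was not tested.

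The largest wildtype difference among the 11 was that of the mitochondrial carrier Slc25a30, 3.55 in wildtype and -1.05 in YAP-KO. Gclc, of glutathione synthesis, stood at 2.91 and -1.12, the transaminase Gpt2 at 1.89 and -1.11, and the interleukin 1 receptor gene Il1r1 at 1.6 and -2.05. Il1r1 read 12.04 on the wildtype and 15.68 on the YAP-KO 0 h array, and both 24 h arrays read within 0.01 of each other, so the arrays at 0 h carry that contrast. For Gclc, Gpt2 and Slc25a30 the 24 h arrays differed more than the 0 h ones.

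The lipid regulators Angptl4 and Angptl8, which act on lipoprotein lipase, went opposite ways: Angptl4 stood at 1.28 and -2.14, and Angptl8 at -1.11 and 3.04. The lipase gene Pnpla2 stood at 1.05 and -1.11. The remaining genes were Slc25a47 at 1.09 and -1.62, Ugdh at 1.17 and -1.25, Ifit3 at 1.21 and -1.30, and Xbp1 at 1.08 and -1.0.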

How the results depend on the processing

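The counts of genes past 2-fold, 2322 higher and 1061 lower, stayed within 1.5 times under all 8 alternatives. They ranged from 1771 higher after quantile normalization to 2631 after median centring, and from 851 lower against the YAP-KO 0 h array to 1271 after quantile normalization. The scalings set the balance between directions: 58.2% of genes past 2-fold were higher after quantile normalization, and 73.8% when arrays were centred. With the YAP-KO 0 h array as baseline, 1831 of the 2322 higher and 696 of the 1061 lower genes were past 2-fold in the same direction. Both differences use the same 24 h array. Of 110 list and family medians, 101 kept their side of 2-fold after quantile normalization, 101 against the YAP-KO 0 h array and 99 without any filter. Filtering at the 60th percentile left 90 of 106 on their side, and the other 16 became 2-fold. Of 377 genes named, 43 were no longer 2-fold and 6 newly 2-fold against the YAP-KO 0 h array. Quantile normalization took 16 of 378 named genes back within 2-fold, and centring took 10. On the YAP-KO baseline 5 more turned sign: Creld2 to -1.12, Gstp3 to -0.10, Il1r1 to -2.04, Stat3 to -0.17 and Xbp1 to -0.74; the cause was not tested. No paired analysis was possible because every array carries the same replicate number and each group has 1 array. Leaving out a replicate was not possible for the same reason.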

Other observations

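Gene classes outside the lists differed in how often they passed 2-fold. Of 651 small nuclear RNA genes measured, 20.7% were higher and 2.76% lower, of 2806 pseudogenes 14.8% and 2.96%, and of 12028 protein-coding genes 13.8% and 6.63%. Long noncoding RNA genes ran the other way, with 1.90% of 999 higher and 5.51% lower. Small nuclear RNA genes and pseudogenes are often near-copies of one another, so their counts are not counts of independent genes.

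Several genes outside the lists had large differences; they were chosen after their values were seen. Chka, the choline kinase that opens phosphatidylcholine synthesis, read 8.38 at 0 h and 13.4 at 24 h (difference 5.02). Plscr1, a phospholipid scramblase, read 6.28 at 0 h and 11.19 at 24 h (difference 4.91), and the antiproliferative gene Btg3 6.86 at 0 h and 11.68 at 24 h (difference 4.82). Ch25h, which makes 25-hydroxycholesterol, read 4.64 at 0 h and 9.21 at 24 h (difference 4.57). On the lower side, sulfite oxidase (Suox) read 12.53 at 0 h and 9.05 at 24 h (difference -3.48), the carbonic anhydrases Car3 and Car5a 19.5 at 0 h and 16.11 at 24 h (difference -3.39), and 10.78 at 0 h and 7.29 at 24 h (difference -3.49), and Deptor, an inhibitor of the kinase mTOR, 13.16 at 0 h and 9.67 at 24 h (difference -3.49). The lectin genes Clec2d and Clec2h, ligands of natural killer cell receptors, differed by -3.27 and -2.85, while Clec7a and Clec4d, lectins of myeloid cells, differed by 2.56 and 1.75. ABC transporters were lower for 13 of 36 genes and higher for 6.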
